A study of Homo sapiens with 12 samples.

Results

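The circular RNAs (circRNAs) of 5 host genes, XPO1, RARS, MAN1A2, RBM33 and CSNK1G3, were followed in the glioblastoma lines LN229 and T98G, both long established from human tumours. All rows of the deposited circRNA table that name one of these hosts were taken, which gave 48 loops of the 12538 listed, and 45 of the 48 had at least 1 read. The hosts were chosen because 1 loop of each was abundant in all 12 libraries and looked even between the groups. The reads of those 5 loops are therefore given as a description, with no test, and tests were kept for the other loops. Each line was sequenced in normoxia and in hypoxia, which made 4 groups of 3 libraries. Normoxia was 95% air with 5% CO2 and hypoxia was 1% O2 with 5% CO2, for a time not given in the sources used here. All cells were grown in DMEM with serum, and the labels name no added gene and no drug.

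A circRNA forms when the splicing machinery joins the end of a downstream exon back to the start of an upstream exon, a step called back-splicing. The closed loop has no free ends, which protects it from exonucleases, and long introns on both sides are known to favour back-splicing. Only reads across that back-splice junction tell a loop from the linear RNA of the same gene, and these reads are what the table counts. XPO1 encodes exportin 1, the receptor that carries cargo with a nuclear export signal out of the nucleus. RARS encodes the cytoplasmic arginyl-tRNA synthetase, which loads arginine onto its tRNA. MAN1A2 encodes a Golgi alpha-mannosidase that trims mannose from N-glycans, RBM33 an RNA-binding protein, and CSNK1G3 a gamma isoform of casein kinase 1. The table holds no linear RNA, so whether these hosts behaved as housekeeping genes was not measured.

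The junctions of the MAN1A2 loops show how loops of 1 host differed. Capitals mark the last 30 bases of the final exon and lower case the first 30 bases of the opening exon, 5′ to 3′, read from GENCODE release 29 transcripts. The 4 MAN1A2 loops below share the lower-case letters and differ in the exon that is joined to it.
MAN1A2 353 nt, exons 2 to 3: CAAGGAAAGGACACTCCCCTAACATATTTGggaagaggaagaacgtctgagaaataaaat
MAN1A2 472 nt, exons 2 to 4: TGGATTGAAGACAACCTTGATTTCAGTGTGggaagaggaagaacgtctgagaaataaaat
MAN1A2 553 nt, exons 2 to 5: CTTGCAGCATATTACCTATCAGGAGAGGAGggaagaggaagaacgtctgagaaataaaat
MAN1A2 648 nt, exons 2 to 6: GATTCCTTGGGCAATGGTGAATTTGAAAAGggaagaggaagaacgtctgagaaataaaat
The RARS loops repeat this arrangement with a common start at exon 2.
RARS 534 nt, exons 2 to 5: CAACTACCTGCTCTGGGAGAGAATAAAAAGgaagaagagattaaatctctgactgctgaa
RARS 777 nt, exons 2 to 7: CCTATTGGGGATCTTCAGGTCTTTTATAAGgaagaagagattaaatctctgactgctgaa
The main RBM33 loops differ at the other side, where a common final exon joins exon 3 or exon 2.
RBM33 445 nt, exons 3 to 5: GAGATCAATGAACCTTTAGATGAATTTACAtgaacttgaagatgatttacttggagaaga
RBM33 524 nt, exons 2 to 5: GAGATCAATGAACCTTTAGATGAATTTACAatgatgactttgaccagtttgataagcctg

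The smaller of the abundant XPO1 loops is short enough to print whole, beginning at exon 3, with the last 30 bases of exon 4 in capitals. Its final capital letter is joined to its first letter.
XPO1 175 nt, exons 3 to 4: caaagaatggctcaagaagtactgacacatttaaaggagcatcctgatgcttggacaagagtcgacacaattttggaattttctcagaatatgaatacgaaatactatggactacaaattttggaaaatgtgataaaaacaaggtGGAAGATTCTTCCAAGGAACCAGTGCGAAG
The larger XPO1 loop, of 307 nt, ends with the same 30 capitals and adds exon 2, which holds the start codon. The CSNK1G3 loop of 536 nt also holds exon 2 and the start codon, and its final exon ends in ACAGATTCTATAAGCAGTTAGGATCTGGAG. Letters of exon 2 are not printed for these loops.

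The libraries held 4298 to 7608 junction reads, 71526 in all, and the members took 1853 of them, or 2.59%. The table holds no host-gene RNA by which to check the cell lines, and circRNA reads gave little help. No read came from the 10 listed glial and glioblastoma hosts, the 6 endothelial and immune hosts or the 5 fibroblast and pericyte hosts, and 1 of 5 neuronal hosts, MAP2, had 3 reads. The circRNAs of CYP24A1, a vitamin D hydroxylase, set libraries of the same group apart: they took 24.7% of the reads in LN229 normoxia replicate 3 and at most 0.0419% in the other 2 libraries of that group. In T98G normoxia they took 11.3% in replicate 3 and at most 0.0233% in the others. They took 22.6%, 5.61% and 0.0177% in LN229 hypoxia, and 18.1% to 21.5% in T98G hypoxia. Levels are given as CPM, junction reads scaled to a common library size with TMM normalisation, where 1 read was worth 146 to 203 CPM. A lower level can mean fewer loops per cell or fewer cells that hold them, and bulk libraries cannot tell these apart.

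In each host 1 loop held most of the reads. These 5 dominant loops took 1330 of the 1853 reads and ranked 5, 6, 7, 8 and 11 among all circRNAs of the table. Only CYP24A1 with 8126 reads, CDR1 with 610, HIPK3 with 608 and SPECC1 with 511 stood above all of them. Between the RBM33 loop, at 229 reads, and the CSNK1G3 loop, at 197, lay loops of PLOD2 with 228 and GUSBP1 with 199. A FAT1 loop followed with 196 reads, so no gap in abundance separates the 5 from their neighbours.

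The dominant loops all came from the 5′ part of their transcripts. Those of XPO1 (exons 2 to 4 of 25), RARS (2 to 5 of 15), MAN1A2 (2 to 5 of 13) and CSNK1G3 (2 to 4 of 13) all began at exon 2. The RBM33 loop held exons 3 to 5 of 18. Loops that began at exon 2 together held 421 of 439 RARS reads, 443 of 460 MAN1A2 reads, and all 222 CSNK1G3 reads came from loops with the same first base, 3 of the 4 loops being matched to exon 2. They held 297 of 458 XPO1 reads and 18 of 274 RBM33 reads. Exon numbers come from loops matched to GENCODE by span and spliced length, which placed 20 of 20 exonic XPO1 loops, 8 of 8 for RARS, 7 of 7 for MAN1A2, 5 of 6 for RBM33 and 3 of 4 for CSNK1G3.

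**Figure D1:**
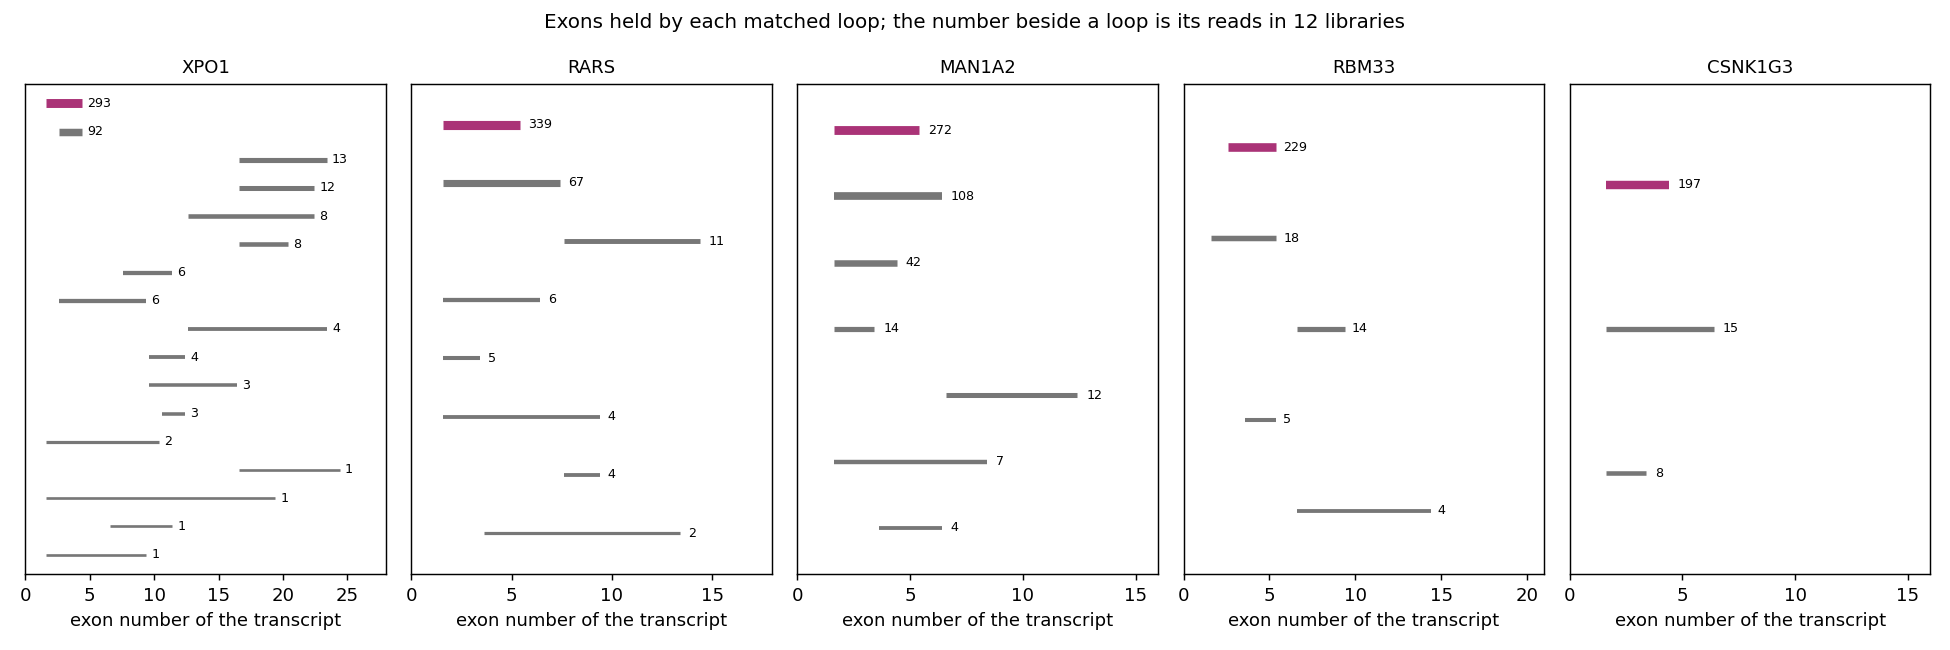
Exons held by each matched loop with a read, by exon number of the transcript, 1 panel per host. A bar spans the first to the last exon of a loop, thicker bars hold more reads (log scale), the number gives reads over 12 libraries, and the dominant loop is in purple. Most reads sit on loops that open at exon 2 or 3, and XPO1 has 6 loops that begin at exon 13 or later.

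By the GENCODE annotation, the introns beside the dominant loops were among the longest of the gene on at least 1 side in 4 hosts and not in RARS. The CSNK1G3 loop lay between the longest (32846 nt) and the second longest (15828 nt) of its 12 introns. The MAN1A2 loop lay between the longest (33700 nt) and the third longest (21581 nt) of 12. Downstream of the XPO1 loop came the longest of 24 introns, at 20300 nt, and upstream one of 3658 nt. The RBM33 loop had an upstream intron of 7613 nt, the 6th of 17, and a downstream one of 19864 nt, the second longest. The RARS loop had 2058 nt upstream and 664 nt downstream, the 6th and 12th of 14 introns. The median intron of RARS measured 1536 nt. The loops themselves had 36.9% to 40.1% G and C.

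XPO1 listed the most loops, 20, of which 17 had a read. Its dominant loop, hsa_circ_0001017 at chr2:61749746-61761038 on the minus strand of hg19, took 293 of 458 reads, or 64% (95% Wilson interval 59.5 to 68.2%). Its reads were 35, 37 and 13 in normoxic and 15, 14 and 23 in hypoxic LN229 cells, and 37, 35 and 28 in normoxic and 16, 14 and 26 in hypoxic T98G cells. The 4 highest libraries were all normoxic, but LN229 normoxia replicate 3 was the lowest of the 12. Means were 4837 ± 2571 CPM (SD, n = 3) in LN229 normoxia and 2811 ± 997 in LN229 hypoxia, and 5933 ± 1492 and 3336 ± 1071 in T98G. On the CPM scale the oxygen groups overlapped in both lines. The average log2 fold change, hypoxia minus normoxia, was −0.80 (SE 0.34). CYP24A1 circRNAs took at most 0.0419% of reads in the 4 libraries with 35 to 37 reads of this loop and 5.61% to 24.7% in the 5 libraries with 13 to 16. The 3 libraries between did not follow that order, with 0.0177% at 23 reads, 21.5% at 26 and 11.3% at 28. With the CYP24A1 circRNAs left out of the library sizes and the fit, the average log2 fold change of the XPO1 loop was −0.73. That step changes only the scaling of the libraries, and a link between the XPO1 loop and CYP24A1 was not tested.

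The second XPO1 loop, hsa_circ_0001016 at chr2:61749746-61753656, shares the final exon and omits exon 2, and it took 92 reads. It had 7, 6 and 5 reads in normoxic and 10, 9 and 6 in hypoxic LN229 cells, and 8, 8 and 9 in normoxic and 8, 9 and 7 in hypoxic T98G cells. The libraries differed by at most 5 reads, and the oxygen groups overlapped in both lines. In normoxia the LN229 libraries, at 5 to 7 reads, lay below the T98G libraries, at 8 to 9. No background share was computed for that comparison, and nothing is read from it. Per read of the 307 nt loop there were 0.16 to 0.38 reads of the 175 nt loop in the 6 normoxia libraries and 0.26 to 0.67 in the 6 hypoxia libraries. A further 6 XPO1 loops lay wholly within exons 13 to 24 and together had 46 reads, 10% of the host, with 0 to 7 reads in a library.

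**Figure D2:**
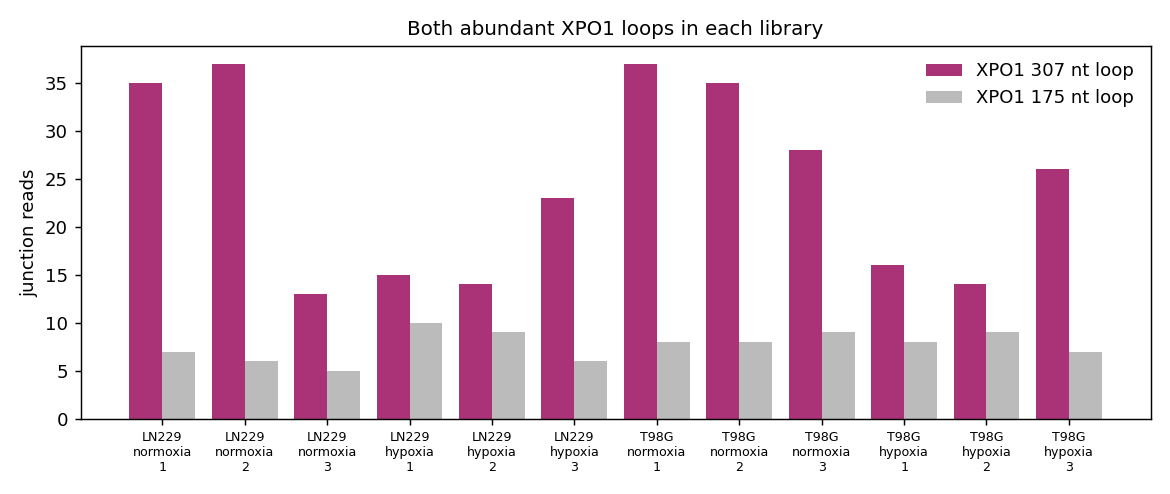
Junction reads of both abundant XPO1 loops in each of the 12 libraries, with 1 bar per loop. The 307 nt loop ranges from 13 to 37 reads, and the 175 nt loop stays between 5 and 10.

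RARS had the most abundant of the 5 dominant loops, hsa_circ_0001550 at chr5:167915607-167921655 on the plus strand, with 339 of 439 reads (77.2%, interval 73.1 to 80.9%). Its counts were 26, 32 and 34 in normoxic and 22, 30 and 18 in hypoxic LN229 cells, and 28, 40 and 36 in normoxic and 32, 24 and 17 in hypoxic T98G cells. The lowest libraries were hypoxic and the highest normoxic, with overlap in both lines. Means were 5095 ± 880 and 3687 ± 659 CPM (SD, n = 3) in LN229 normoxia and hypoxia, and 6155 ± 1736 and 4357 ± 1225 in T98G. The average log2 fold change was −0.48 (SE 0.29). Of 9 RARS loops with a read, the second, hsa_circ_0001551 ending at base 167924353, had 67 reads: 6, 3 and 9 in normoxic and 8, 2 and 7 in hypoxic LN229 cells, and 8, 7 and 8 in normoxic and 5, 2 and 2 in hypoxic T98G cells. Its hypoxia libraries lay below all normoxia libraries in T98G, where the groups of 36.9% of the 244 circRNAs with enough reads for testing did not overlap, and its LN229 groups overlapped.

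MAN1A2 spread its reads most widely, and its dominant loop, hsa_circ_0000118 at chr1:117944808-117963271 on the plus strand, took 272 of 460 (59.1%, interval 54.6 to 63.5%). The libraries gave 35, 26 and 30 reads in normoxic and 13, 23 and 25 in hypoxic LN229 cells, and 22, 12 and 21 in normoxic and 18, 26 and 21 in hypoxic T98G cells. In LN229 every normoxia library lay above every hypoxia library, as a complete separation in either direction did for 9.84% of the 244 circRNAs, and T98G showed no such order. Means were 5006 ± 589 and 3256 ± 1086 CPM (SD, n = 3) in LN229 normoxia and hypoxia, and 3151 ± 693 and 3942 ± 1079 in T98G. The average log2 fold change was −0.15 (SE 0.29). The 648 nt loop, hsa_circ_0000119 ending at base 117984947, had 108 reads: 10, 10 and 7 in normoxic and 11, 12 and 14 in hypoxic LN229 cells, and 7, 4 and 11 in normoxic and 9, 9 and 4 in hypoxic T98G cells. The 472 nt loop, hsa_circ_0000117 ending at base 117957453, had 42 reads: 8, 6 and 3, then 1, 6 and 2, then 6, 4 and 3, then 2, 1 and 0, in the same group order. Its T98G hypoxia libraries lay below all of T98G normoxia, a comparison in which 36.9% of circRNAs did not overlap. The 353 nt loop had 14 reads. Per read of the 553 nt loop, the 648 nt loop had 0.23 to 0.38 reads in LN229 normoxia and 0.52 to 0.85 in LN229 hypoxia, against 0.32 to 0.52 and 0.19 to 0.50 in T98G. The same ratio for RARS was 0.09 to 0.29 in normoxia and 0.07 to 0.39 in hypoxia. It was 0.00 to 0.38 and 0.00 to 0.22 for RBM33, and 0.00 to 0.13 and 0.00 to 0.14 for CSNK1G3. No background share was computed for these ratios or that of XPO1. Each divides by the loop that chose the host, so nothing is read from them.

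RBM33 concentrated its reads on hsa_circ_0001772 at chr7:155465561-155473602 on the plus strand, with 229 of 274 (83.6%, interval 78.7 to 87.5%). There were 29, 10 and 13 reads in normoxic and 21, 28 and 27 in hypoxic LN229 cells, and 19, 20 and 22 in normoxic and 18, 14 and 8 in hypoxic T98G cells. The LN229 hypoxia libraries were above 2 of the 3 normoxia libraries, replicate 1 of LN229 normoxia was the highest of the 12, and the T98G hypoxia libraries were below all of T98G normoxia. Means were 2836 ± 1605 and 4049 ± 603 CPM (SD, n = 3) in LN229 normoxia and hypoxia, and 3570 ± 429 and 2392 ± 863 in T98G, and the average log2 fold change was −0.03 (SE 0.31). The second loop, hsa_circ_0001771 starting at base 155457869, had 18 reads: 1, 3 and 5, then 1, 1 and 1 in LN229 normoxia and hypoxia, and 0, 0 and 2, then 4, 0 and 0 in T98G.

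CSNK1G3 had the fewest loops, 4, and the highest share on a single one, hsa_circ_0001522 at chr5:122881111-122893258 on the plus strand, with 197 of 222 reads (88.7%, interval 83.9 to 92.3%). Its reads numbered 25, 22 and 23 in normoxic and 21, 10 and 8 in hypoxic LN229 cells, and 13, 15 and 13 in normoxic and 15, 15 and 17 in hypoxic T98G cells. In LN229 every normoxia library lay above every hypoxia library, at the closest by 3461 against 3423 CPM. A complete separation in either direction occurred there for 9.84% of the 244 circRNAs. The T98G libraries held 13 to 17 reads. Means were 3868 ± 354 and 2086 ± 1159 CPM (SD, n = 3) in LN229 normoxia and hypoxia, and 2428 ± 556 and 2818 ± 268 in T98G. The average log2 fold change was −0.33 (SE 0.29). The second loop, hsa_circ_0073706 ending at base 122911657, had 15 reads: 3, 0 and 3, then 3, 0 and 0 in LN229 normoxia and hypoxia, and 1, 0 and 1, then 1, 1 and 2 in T98G.

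**Figure D3:**
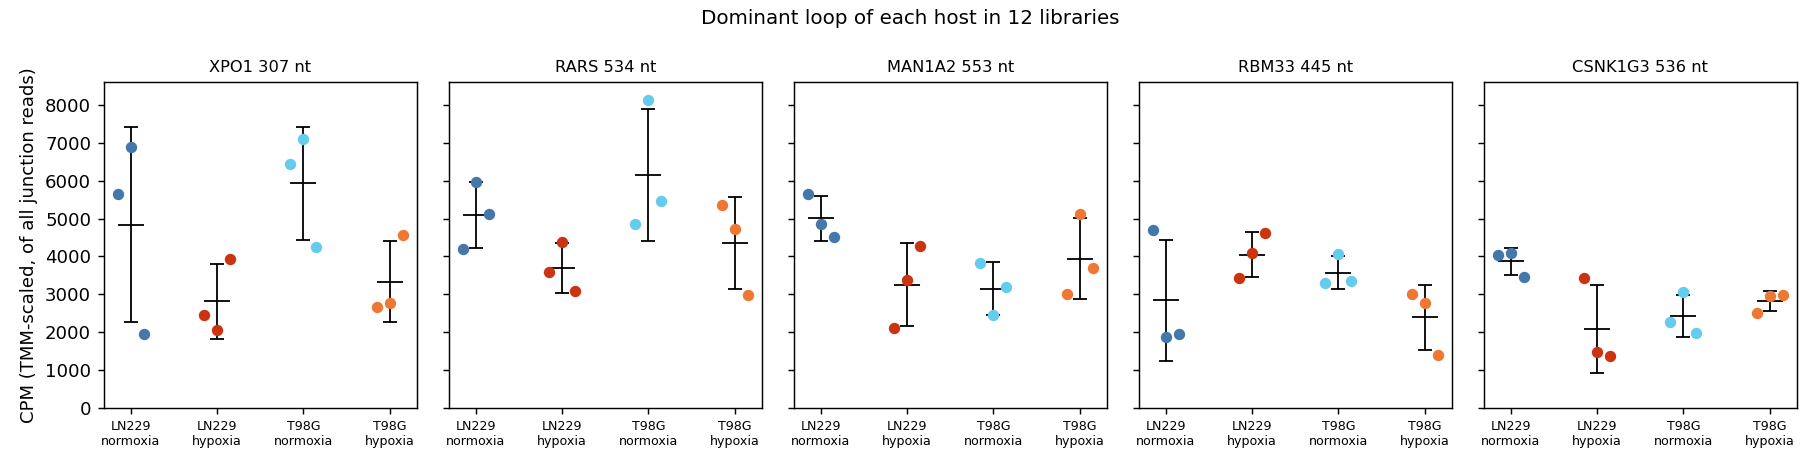
TMM-scaled CPM of the dominant loop of each host in 12 libraries. Points are libraries, and the horizontal mark and bar give the group mean and SD (n = 3). XPO1 spans 1956 to 7113 CPM, and CSNK1G3 spans 1370 to 4100 CPM.

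In CPM, the oxygen groups were thus fully apart for the CSNK1G3 536 nt and MAN1A2 553 nt loops in LN229 (background 9.84%) and for the RBM33 445 nt loop in T98G (background 36.9%). These dominant loops were chosen partly on this contrast, so nothing is read from their count.

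The XPO1 307 nt loop went against the description of these loops as steady. Over 12 libraries its coefficient of variation (CV) was 45.2%, above the median of 41% for the 28 circRNAs with a mean of at least 10 reads, and its CPM spanned 3.64-fold. The CV was 28.2% for the MAN1A2 loop, 29% for RARS, 32.4% for CSNK1G3 and 33.4% for RBM33, which placed them 3rd, 6th, 7th and 9th of the 28. Counting error alone would give 21.1%, 18.8%, 24.7% and 23.1%, so each loop varied 1.31 to 1.54 times as much as counting error alone gives, against 2.25 times for XPO1. HIPK3 was steadier in CV, at 23.5%, and CDR1 and CYP24A1 reached 73.2% and 103%. As plain shares of the junction reads, with no TMM scaling, the CV was 53.6% for XPO1, 38.5% for RBM33, 36.6% for RARS, 35.8% for CSNK1G3 and 31.3% for MAN1A2. On that scale PLOD2 was at 31.6% and HIPK3 at 21.3%. These values served in choosing the hosts, so they carry no test and do not support the description.

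**Figure D4:**
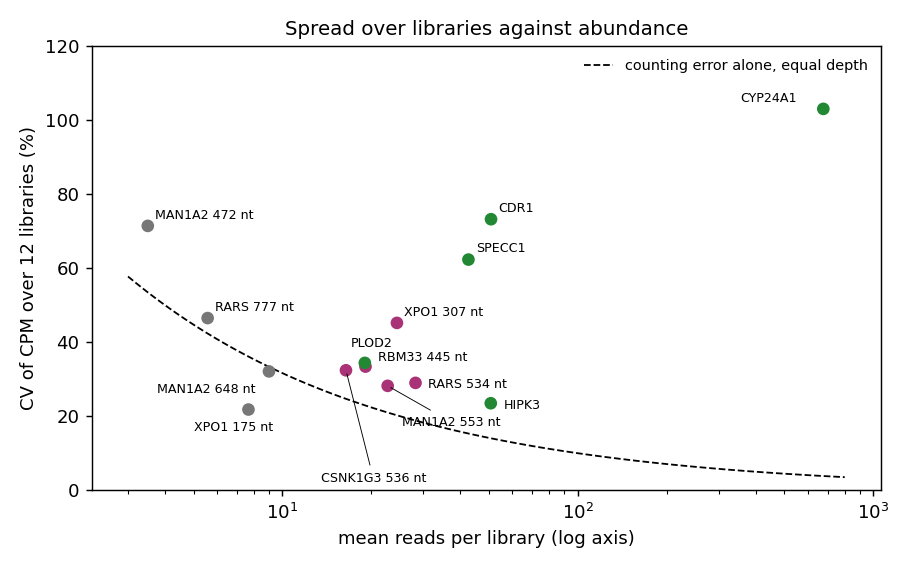
CV of CPM over 12 libraries against mean reads per library (log axis). Purple points are the dominant loops, grey points the other tested loops of the same hosts, and green points other abundant circRNAs. The dashed line is the CV that counting error alone gives at equal depth. The XPO1 175 nt loop, at 21.8%, lies below its own counting CV of 36.1%, and the XPO1 307 nt loop lies above the other purple points.

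Of the 43 loops that did not dominate their host, 4 had enough reads for the test, at least 5 in at least 3 libraries. None of the 4 passed the edgeR quasi-likelihood test at an adjusted p of 0.05 between hypoxia and normoxia, in LN229, where 0% of the 244 circRNAs passed, in T98G, where 0.41% passed, or averaged over both lines, where 4.1% passed, all 10 of them lower in hypoxia. None of the 4 passed between T98G and LN229 either, where 0% passed. DESeq2 called none of the 244 in LN229, in T98G, where edgeR called 1, or between the lines, and called 10 in the average. At an unadjusted p under 0.05, edgeR had 20, 51, 47 and 7 of the 244 circRNAs in these comparisons.

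The 4 tested loops did not share a direction. The MAN1A2 472 nt loop had the largest average difference, −1.47 on the log2 scale (SE 0.62, 95% interval −2.77 to −0.17, adjusted p = 0.217 in edgeR). It was at 954 ± 444 CPM in LN229 normoxia, 461 ± 372 in LN229 hypoxia, 770 ± 296 in T98G normoxia and 177 ± 168 in T98G hypoxia (SD, n = 3). Its normoxia libraries alone met the read filter, with 8 and 6 reads in LN229 and 6 in T98G. The only hypoxia library at that minimum was from LN229, with 6 reads, so hypoxia alone would not have admitted the loop. Such an entry favours a lower value in hypoxia, so its sign, interval and p-values are not read as a hypoxia effect. With normoxia replicate 3 of both lines left out, the MAN1A2 472 nt loop was at −1.71. There 1 of the 4 loops passed, this one at an adjusted p of 0.0489 in edgeR. Of the 216 circRNAs tested in those libraries, 23.6% passed (51 circRNAs). In those libraries 0 of the 4 loops passed in LN229, where 6.48% of circRNAs did, in T98G, where 18.1% did, or between the lines, where 0% did. The RARS 777 nt loop was at −0.69 (SE 0.44, interval −1.60 to 0.23, adjusted p = 0.408), with T98G at 1343 ± 111 CPM in normoxia and 527 ± 268 in hypoxia. The MAN1A2 648 nt loop was at 0.23 (SE 0.34, interval −0.48 to 0.94, adjusted p = 0.742) and the XPO1 175 nt loop at 0.20 (SE 0.32, interval −0.48 to 0.87, adjusted p = 0.76). Between the lines, T98G minus LN229, the 4 loops lay between −0.80 and 0.33, each with an adjusted p of 0.97 in edgeR. The −0.80 is that of the MAN1A2 472 nt loop, whose LN229 libraries alone met the read filter, with 8, 6 and 6 reads. T98G alone would not have admitted this loop. Such an entry favours a lower value in T98G, so that value is not read as a difference between the lines. The difference of the hypoxia responses was called for 0% of the 244 circRNAs, with 19 at an unadjusted p under 0.05 and 0 by DESeq2. The median average difference over all 244 circRNAs was 0.04.

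**Figure D5:**
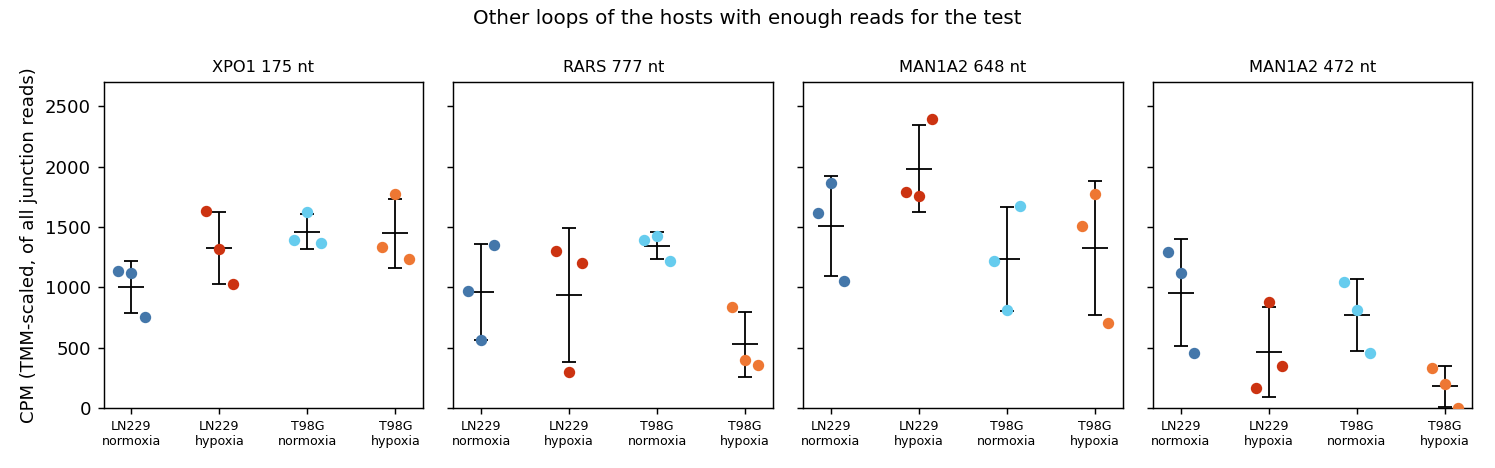
TMM-scaled CPM of the 4 loops that did not dominate their host and had enough reads for the test. Points are libraries, and the horizontal mark and bar give the group mean and SD (n = 3). The MAN1A2 472 nt and RARS 777 nt loops are lower in T98G hypoxia than in T98G normoxia with no overlap (36.9% of all 244 circRNAs did not overlap there), and the groups of the XPO1 175 nt and MAN1A2 648 nt loops overlap in both lines.

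The loops too sparse for single tests, 36 with a read and 214 reads in all, had at most 18 reads each and at most 5 in a library. All loops but the dominant one were therefore summed for each host. The sums also hold the loops tested singly: 92 of 165 reads for XPO1, 67 of 100 for RARS, and 108 and 42 of 188 for MAN1A2. In these 3 hosts the sums thus rest mostly on those loops and say little of the sparse ones. The sum for XPO1 was 2379 ± 415 CPM in hypoxia and 2260 ± 390 in normoxia (SD, n = 6), a difference of 119 (two-sided exact permutation p = 0.625, adjusted 0.8). For RARS it was 1170 ± 586 against 1659 ± 719 (exact p = 0.25, adjusted 0.75). The MAN1A2 sums were 2625 and 2639 CPM (exact p = 0.99, adjusted 0.99), the RBM33 sums 638 and 616 (exact p = 0.96, adjusted 0.99) and the CSNK1G3 sums 282 and 413 (exact p = 0.36, adjusted 0.75). Between T98G and LN229 the largest difference was that of MAN1A2, −671 CPM for T98G minus LN229, at 2297 and 2967 (exact p = 0.22, adjusted 0.75), and −274 CPM without T98G hypoxia replicate 3. No sum passed the test in either comparison, and 400 arrangements allow no p below 0.005. A single sum at that floor, with the others far from it, has an adjusted p of 0.05, and passing required less than 0.05. The test could therefore not call a difference confined to a single sum, and no absence of change is read from it.

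Relatives of the hosts gave few circRNAs with enough reads. Of 51 nuclear transport genes, 35 besides XPO1 hosted a loop with a read, with 627 reads outside XPO1. Of these only NUP54 and TNPO3 had a tested loop. NUP54, a nuclear pore subunit, was at −0.64 (SE 0.46, adjusted p = 0.448 in edgeR) in the average of both lines, and TNPO3, an import receptor for splicing factors, at −0.37 (SE 0.46, adjusted p = 0.701). Of 40 aminoacyl-tRNA synthetase genes, 19 besides RARS hosted a loop with a read, with 140 reads outside RARS. IARS, the isoleucyl enzyme, was tested at 0.35 (SE 0.79, adjusted p = 0.793 in edgeR). Of 27 N-glycan genes, 12 besides MAN1A2 hosted a loop with a read, with 354 reads outside MAN1A2. STT3B, a catalytic subunit of oligosaccharyltransferase, was at −1.04 (SE 0.51, adjusted p = 0.287 in edgeR). FUT8, the core fucosyltransferase, was at −0.17 (SE 0.60, adjusted p = 0.866). RBM39 was tested among 34 RBM genes, at 1.00 (SE 0.65, adjusted p = 0.414). The casein kinase list of 16 genes had reads from 7 besides CSNK1G3 and no tested loop outside it. A VRK2 loop was the highest of these at 25 reads. No tested relative passed in any comparison.

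The circRNAs whose course over the 12 libraries was most like that of the 5 dominant loops came from FAT1, ARHGAP12, MPP6, ZKSCAN1 and FBXW7. Likeness was the root mean square difference in centred log2 CPM from the mean of the 5, over 12 libraries and among 23 other circRNAs with a mean of at least 10 reads. It was 0.32 for FAT1, 0.33 for ARHGAP12, 0.36 for MPP6 and 0.37 for both ZKSCAN1 and FBXW7, against a median of 0.66. The dominant loops themselves lay at 0.32 (RARS) to 0.51 (RBM33) from their own mean. That mean was highest in LN229 normoxia replicate 1, at 0.44, and lowest in LN229 hypoxia replicate 2, at −0.30. Normoxia replicates 1 and 2 of both lines were at 0.15 to 0.44, normoxia replicates 3 at −0.16 and −0.02, and the hypoxia libraries at −0.30 to 0.01. These values served in choosing the hosts and carry no test. With a mean in this range, a small distance can mean little spread over the libraries as well as a like course.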

How the data were processed

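Junction reads were measured in 12 libraries after TRIzol extraction and Ribo-Zero removal of ribosomal RNA, per the labels' protocols. CASAVA 1.8, BWA and hg19 appear in the submitters' processing notes, with the circRNA caller not given in the sources used here. For each circRNA and library the authors deposited a raw count (back-splice reads) and a log2 value. The deposited log2 values served only in limma as an alternative. Of the table, 1 empty line was not used.

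The deposited counts were fitted in edgeR 4.0.16 (R 4.3.3), with 1 mean per group over all 12 libraries, TMM scaling, a minimum of 5 reads in 3 libraries (244 circRNAs of 205 hosts) and Benjamini-Hochberg adjustment over all 244 at 0.05. The common dispersion was 0.261 and effective library sizes were 4921 to 6833. Summed loops were tested by exact permutation within line or oxygen, adjusted over 10 values. The edgeR and permutation steps were tested on simulated data. Alternatives used DESeq2 1.42.0, limma 3.58.1, other scalings and filters, a replicate term and left-out libraries. Log2 CPM profiles used a pseudocount of 0.5 reads. Intervals on shares are 95% Wilson intervals and cover counting error only.

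Hosts, gene lists and tests were chosen with earlier results of these data known. Every member loop was counted, and those named were the dominant and second loop of each host and any other tested loop. The MAN1A2 353 nt loop was named besides, after its values were seen, to complete a series of junctions. For comparison the 5 most alike circRNAs, up to 3 relatives per list and 5 abundant circRNAs were named. Loops were matched to GENCODE release 29 by genomic span and spliced length at a constant shift per host, so printed coordinates are those of the table. The CSNK1G3 match is to another transcript than the table names, with the same span and spliced length in the matched loops. Whether replicate libraries stem from separate cultures is not stated in the labels. P-values then cover only the spread among these libraries, which may be technical.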

Additional observations from a re-analysis of the deposited data

How the results depend on the processing

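The count of member loops that passed changed only with normoxia replicate 3 of both lines left out. There 1 loop passed in the average in place of 0 (MAN1A2 472 nt, −1.71), while the circRNAs that passed rose from 10 (4.1%) to 51 (23.6%). That loop met the read filter through its normoxia libraries alone, so its passing is not read as a hypoxia effect. Signs near 0 turned without reaching the threshold. In T98G the XPO1 175 nt loop was at 0.10 with RLE size factors and with DESeq2, and at 0.07 without CYP24A1 or without both normoxia replicates 3. The MAN1A2 648 nt loop in T98G was at −0.24 without TMM, −0.05 and −0.03 with the looser and no filter, and −0.02 in limma. The RARS 777 nt loop was at 0.26 in LN229 and 0.04 between the lines without both normoxia replicates 3. The MAN1A2 sum, hypoxia minus normoxia, was 47.4 CPM with RLE, 88.2 without CYP24A1 and 0.239 without both replicates 3. Without TMM the XPO1 sum was −210 and the RBM33 sum −49, and the RBM33 sum over circBase loops −75.7. The cause was not tested.

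Leaving out each library in turn gave ranges of −0.16 to 0.15 (XPO1 175 nt) and −0.17 to 0.41 (MAN1A2 648 nt) in T98G, and for RARS 777 nt of −0.40 to 0.44 in LN229 and −0.40 to 0.03 between the lines. The sums, hypoxia minus normoxia, ranged from −366 to 376 CPM for MAN1A2, −198 to 160 for RBM33, −48.4 to 271 for XPO1, −672 to −224 for RARS and −190 to −44.6 for CSNK1G3. T98G minus LN229, they ranged from −67.4 to 377 for RARS, −950 to −274 for MAN1A2, −416 to −58.7 for RBM33, −220 to −81.6 for CSNK1G3 and 105 to 415 for XPO1. The RBM33 sum, T98G minus LN229, was −416 with an adjusted exact permutation p of 0.05 without T98G hypoxia replicate 1, which held 10 of its reads. The average log2 fold changes of the dominant loops moved by less than the spread between libraries in all 105 alternatives, but signs near 0 turned. RBM33 445 nt was at 0.03 with RLE, 0.02 without CYP24A1 and with DESeq2, and −0.18 to 0.22 with 1 library left out. MAN1A2 553 nt then ranged from −0.28 to 0.03 and CSNK1G3 536 nt from −0.52 to −0.16.

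Same-numbered libraries of normoxia and hypoxia correlated at −0.545 to 0.0607, and those of the lines at 0.39 to 0.674 in normoxia and −0.0705 to 0.0128 in hypoxia. In normoxia all 6 libraries correlated best with their own number in the other line, and in the other pairings 0 of 6 did. The numbers thus go together across the lines in normoxia, but not over all pairs of any comparison made, and the tests carry no pairing. They treat the normoxia libraries of both lines as independent. For hypoxia against normoxia over both lines, SE, intervals and p-values may therefore be too small, and the share of circRNAs that passed too high. With the replicate block 0 of the 4 loops passed in each comparison, and the MAN1A2 472 nt average was −1.51 (adjusted p = 0.24 in edgeR). The summed loops between the lines then had adjusted exact permutation p of 0.688 to 0.859. Swapping only same-numbered libraries leaves too few arrangements for a single sum to pass after adjustment, so nothing is read from these p-values. At 8 to 40 reads per library for a dominant loop, depth limits every value here.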
